A study of Mus musculus with 6 samples.

Results

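Imprinted genes were described in the mouse melanoma line B16-F1 through 10 genes: Igf2r, Igf2, H19, Grb10, Cdkn1c, Mest, Plagl1, Dlk1, Peg3 and Ndn. Every probe set that the platform annotation pairs with 1 of these symbols and no other was taken, which gave 27 of the 45037 probe sets that are not array controls, for 9 of the 18193 genes with such a probe set. H19, the long noncoding RNA expressed from the maternal chromosome beside Igf2, was matched only by a probe set annotated to several symbols, so no value is given for it. Ndn had 8 probe sets, Peg3 5, Grb10 and Plagl1 3 each, Igf2r, Igf2 and Dlk1 2 each, and Mest and Cdkn1c 1 each.

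RNA was measured on 6 one-colour Affymetrix arrays from 3 lines with a stably integrated lentiviral short hairpin RNA (shRNA). The hairpin targeted GFP in the control line, mH2A1 (macroH2A1) in one knockdown line and mH2A2 (macroH2A2) in the other, and each line had 2 arrays labelled as biological replicates 1 and 2. All lines share the C57BL/6J background of the tumour, the lentiviral vector and a hairpin, and no line without a hairpin was used here. The labels do not say whether a line is a clone or a pool, or how many hairpins per target were tried, so a line and its hairpin cannot be told apart.

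An imprinted gene is transcribed mainly from the copy inherited from one parent, because DNA methylation set down in the egg or sperm marks one of the 2 copies at an imprinting control region. MacroH2A proteins are histone H2A variants with a large globular domain that are found on silent chromatin, including the inactive X chromosome and silenced copies of imprinted loci. Many imprinted genes act on growth: Igf2 encodes a growth factor, Igf2r a receptor that removes it, and Grb10 and Cdkn1c restrain growth signalling and the cell cycle. Expression arrays do not separate the parental copies, so each signal below is the sum over both, and in RNA from a cell population fewer cells of a type and less RNA per cell cannot be told apart.

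The 3 members with signal above background, Igf2r, Mest and Plagl1, had promoters of different CpG content. CpG dinucleotides are shown here because they are where mammalian DNA is methylated and an imprint consists of such methylation. The windows are promoters and were not matched to imprinting control regions, so they are not shown as the site of the imprint. The sequences are the 250 bases before the transcription start in RefSeq's table for build GRCm38.p6, read 5′ to 3′ on the gene's strand, with CpG in capitals. They lie at chr17:12769707-12769956 on the minus strand for Igf2r, chr6:30737800-30738049 on the plus strand for Mest and chr10:13090582-13090831 on the plus strand for Plagl1. The labels name no genome build for the array annotation.

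Igf2r: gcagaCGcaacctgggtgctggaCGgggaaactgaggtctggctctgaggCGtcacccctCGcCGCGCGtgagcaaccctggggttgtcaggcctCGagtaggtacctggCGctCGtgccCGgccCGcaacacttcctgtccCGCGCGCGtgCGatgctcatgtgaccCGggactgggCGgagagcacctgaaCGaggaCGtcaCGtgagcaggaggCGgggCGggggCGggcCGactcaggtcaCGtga

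Mest: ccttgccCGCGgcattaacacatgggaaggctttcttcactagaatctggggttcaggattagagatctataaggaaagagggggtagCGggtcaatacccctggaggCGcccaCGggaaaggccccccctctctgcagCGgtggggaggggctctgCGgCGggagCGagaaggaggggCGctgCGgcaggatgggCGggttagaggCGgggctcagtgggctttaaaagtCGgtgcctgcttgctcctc

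Plagl1: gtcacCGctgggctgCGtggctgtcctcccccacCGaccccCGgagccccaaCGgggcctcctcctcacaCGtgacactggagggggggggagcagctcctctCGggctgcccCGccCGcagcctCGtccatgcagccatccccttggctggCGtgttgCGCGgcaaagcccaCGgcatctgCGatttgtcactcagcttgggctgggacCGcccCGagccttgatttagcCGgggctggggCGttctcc

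The Igf2r window held 27 CpG, a count reached by 8.6% of 32851 mouse promoter windows of this length, against a median of 6. Plagl1 had 19, reached by 19.7% of windows, and the Mest window shown had 14, reached by 29.4%. A second Mest start further upstream had 7. Members not above background spanned a wider range. The Grb10 windows held 40 CpG, reached by 1.3% of windows, and 8, and the Igf2 windows held 1, 10, 22 and 6. Peg3 and Dlk1 had 8 each and Ndn had 5, and no window was listed for Cdkn1c or H19. Members above background and the others thus overlapped in promoter CpG content. The Igf2r window also held the motif CACGTG, which reads the same on both strands, 2 times, at 48 and 7 bases before the start, and the Plagl1 window held it once, 182 bases before the start. At least 1 CACGTG is present in 6.0% of windows and at least 2 in 0.43%. This E-box is a motif of MITF, the melanocyte regulator, and of related factors; it was picked after the sequences were seen, and a match of letters does not show binding.

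The arrays carried RNA of melanocyte-lineage cells by their markers and had been scaled to a common 2% trimmed mean of 150.0. Median signals still differed, so dim probe sets were not on a common level. In the order control, macroH2A1 shRNA and macroH2A2 shRNA, they were 24.6, 20.6 and 19.5 on replicate 1 arrays. On replicate 2 arrays they were 15.1, 15.4 and 16.2. All 7 measured melanocyte markers were above background on all 6 arrays, with summed signals between 32714.3 and 41995.3. Of the markers of other cell types, 1 of 6 for leukocytes, 3 of 7 for fibroblasts, 1 of 5 for keratinocytes and 0 of 5 for endothelial cells were above background on all arrays, with summed signals by list of 53.4 to 81.6, 174.4 to 283.4, 28.1 to 44.0 and 26.9 to 49.1. Macroh2a1, the target of the macroH2A1 hairpin, read 1212.7 and 1262.4 under the control hairpin, 444.2 and 319.1 under its own and 1271.2 and 1170.5 under the macroH2A2 hairpin. Macroh2a2 read 6.1 and 7.5 under the control hairpin, 3.5 and 2.0 under the macroH2A1 hairpin and 11.9 and 8.3 under its own. It was thus not lower under its own hairpin, but it lay below the background threshold on all arrays. The arrays therefore do not check the label of the macroH2A2 shRNA line, and directions drawn from that line rest on the label. The replicate 1 and replicate 2 arrays formed sets: their differences correlated across probe sets by 0.576, 0.372 and 0.415 for the 3 pairs of lines. For this reason many results are also given for each replicate set alone.

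Only 3 of the 9 measured imprinted genes were expressed in these cells. A probe set was called expressed when its signal exceeded, on all 6 arrays, the 90th percentile of 66 probe sets for genes restricted to other tissues, a threshold between 13.4 and 21.75 signal units. Of the 41 background genes 4 themselves met this rule, among them Krt5, the keratinocyte marker counted above. Igf2r, Mest and Plagl1 met it, and the same 3 genes exceeded even the brightest background probe set, at 40.3 to 54.5, with at least 1 probe set on every array. Over all genes 10058 of 18193, or 55.3%, were expressed by this rule. The 6 others spanned growth factor, signalling, cell cycle and neuronal genes, and all were dim in all 3 lines.

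**Figure D1:**
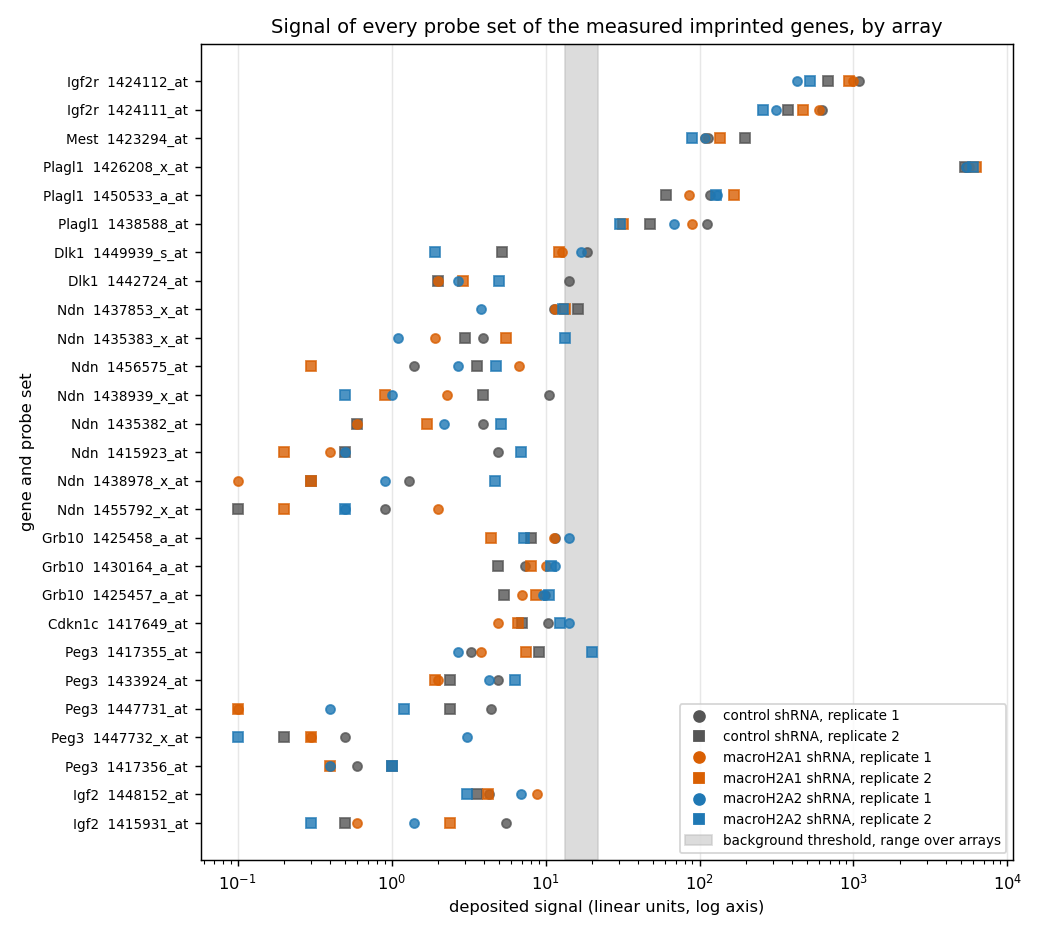
Deposited signal (linear units on a log axis) of all 27 probe sets of the 9 measured imprinted genes, with circles for replicate 1, squares for replicate 2, a colour for each shRNA line and a grey band for the range of the background threshold over the 6 arrays, 13.4 to 21.75. Every point of Igf2r, Mest and Plagl1 lies to the right of the band, from 30.6 upwards, and no point of the other genes does, the highest being 19.9 for Peg3.

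Igf2r encodes the cation-independent mannose 6-phosphate receptor, which carries lysosomal enzymes and delivers IGF2 to lysosomes for degradation; in mice it is expressed from the maternal copy in most tissues. Probe set 1424112_at read 1079.5 and 682.6 in control, 992.3 and 932.8 with the macroH2A1 hairpin and 431.2 and 519.0 with the macroH2A2 hairpin. Both macroH2A2 shRNA arrays were below all 4 others, and the macroH2A1 shRNA arrays lay inside the range of the controls. The second Igf2r probe set, 1424111_at, read 626.8 and 373.2 in control, 600.0 and 467.1 with the macroH2A1 hairpin and 313.0 and 259.1 with the macroH2A2 hairpin. It placed the arrays in the same way, with both macroH2A2 shRNA arrays lowest.

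Against control, the Igf2r signal in the macroH2A2 shRNA line was 1.79-fold lower by 1424112_at, a log2 fold change of -0.84 (SE 0.22, 95% interval -1.34 to -0.34). By 1424111_at the log2 fold change was -0.73 (SE 0.25, 95% interval -1.32 to -0.15). Neither passed limma's test after Benjamini-Hochberg adjustment over all 27025 probe sets tested, with unadjusted p of 0.0048 and 0.020 and adjusted p of 0.929 and 1.0. By p they ranked 131 and 500 of 27025. No probe set passed that test (0%), and 1075 (3.98%) had an unadjusted p under 0.05. With the replicate number as a block, adjusted p was 0.137 and 0.125, and 39 probe sets (0.144%) passed.

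The size of the Igf2r difference depended on the replicate set. Among replicate 1 arrays the log2 fold change of the macroH2A2 shRNA line against control was -1.29 by 1424112_at and -0.97 by 1424111_at, and among replicate 2 arrays it was -0.38 and -0.50. In the control line the replicate 1 array exceeded the replicate 2 array by 0.65 and 0.72 on the log2 scale. Without control replicate 1 the log2 fold changes were -0.51 and -0.37, and without control replicate 2 they were -1.16 and -1.10. Neither the block nor the filters can move this estimate. Both macroH2A2 shRNA arrays lay below both controls, so leaving out 1 array without the block cannot turn its sign either. The sign was thus largely fixed beforehand under the 23 alternatives tried, and it was negative in all of them for both probe sets. Adjusted p fell under 0.05 in 4 of these for 1424112_at and in 1 for 1424111_at, all with the block and 1 array left out.

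Between the knockdown lines the Igf2r difference was of similar size, with closer values in the 2 sets. The macroH2A2 shRNA line was 2.0-fold below the macroH2A1 shRNA line by 1424112_at, a log2 difference of -1.0 (SE 0.22, 95% interval -1.50 to -0.50), with -1.17 among replicate 1 arrays and -0.83 among replicate 2 arrays. By 1424111_at it was -0.86 (SE 0.25), with -0.90 and -0.81. The unadjusted limma p of 0.0017 and 0.0095 ranked 27 and 142 of 27025, but adjusted p was 1.0 for both and 0.183 with the block. In this comparison 0% of probe sets passed, 0.00370% with the block, and 2.73% had an unadjusted p under 0.05.

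In the macroH2A1 shRNA line the order of Igf2r and control was not resolved. The log2 fold change was 0.16 (SE 0.22, 95% interval -0.34 to 0.66) by 1424112_at and 0.13 (SE 0.25, 95% interval -0.46 to 0.71) by 1424111_at, with negative values among replicate 1 arrays (-0.12 and -0.06) and positive ones among replicate 2 arrays (0.44 and 0.31). By mean signal of 1424112_at the lines ran from 963 ± 42.1 with the macroH2A1 hairpin through 881 ± 281 in control to 475 ± 62.1 with the macroH2A2 hairpin (mean ± SD, n = 2 arrays each). The first 2 of these did not differ beyond their spread.

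**Figure D2:**
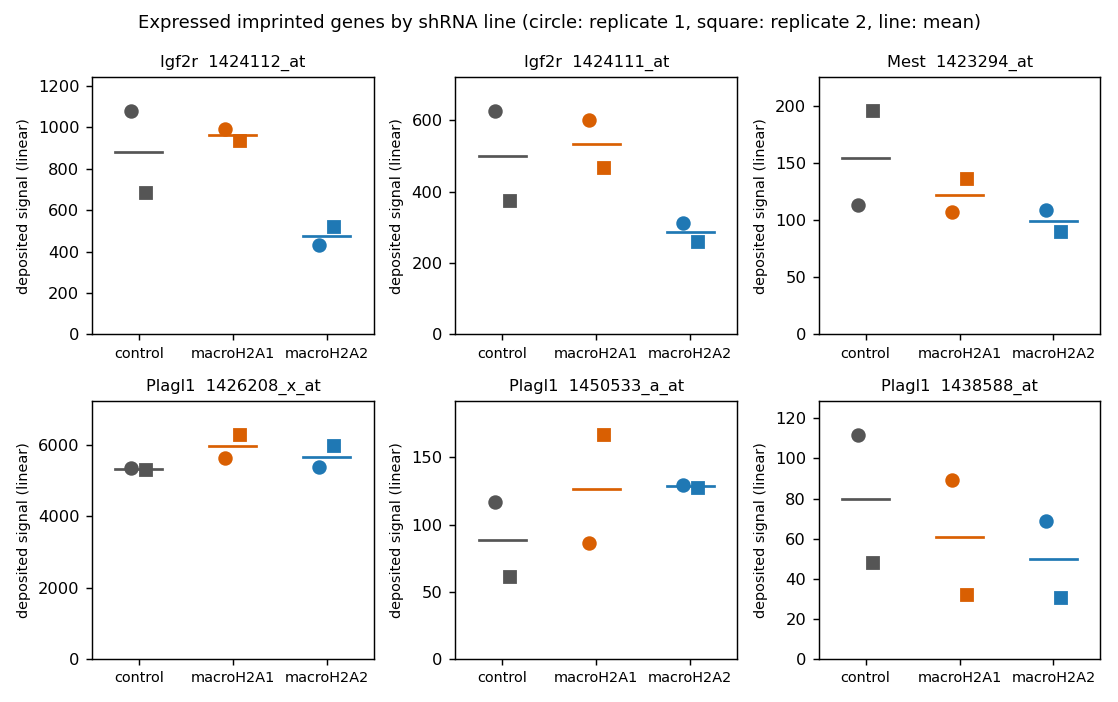
Deposited signal (linear, axes from 0) of the 6 probe sets of the expressed imprinted genes in the 3 shRNA lines, with a circle for replicate 1, a square for replicate 2 and a line at the mean of the 2 arrays. In both Igf2r panels the macroH2A2 shRNA arrays lie below the 4 others, the Mest control replicate 2 array stands highest at 196.2, and the 3 Plagl1 panels rank the lines differently.

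Igf2, the ligand that Igf2r clears, was not expressed: its probe sets lay between 0.3 and 8.8 on all arrays. Grb10, an adaptor that restrains signalling by the insulin and IGF1 receptors, lay between 4.4 and 14.2. The rest of the insulin-like growth factor axis was taken from a list of ligands, receptors, binding proteins and adaptors, of which 13 of 14 were measured, 6 were expressed and 10 were tested. None of the 10 passed the test in any comparison, and 5 were lower and 5 higher in the macroH2A1 shRNA line, 6 lower and 4 higher in the macroH2A2 shRNA line. Their median log2 fold changes were -0.002 and -0.09, beside -0.01 over all 12088 genes tested in each comparison.

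Among the expressed receptors of that axis, Igf1r, which transmits the IGF signal, read 97.4 and 67.0 in control, 93.6 and 71.5 with the macroH2A1 hairpin and 86.0 and 80.0 with the macroH2A2 hairpin. The 3 lines overlapped. Insr, the insulin receptor, read 199.2 and 146.7, 199.7 and 149.4, and 114.4 and 136.5 in the same order. Its macroH2A2 shRNA arrays were both below the 4 others, with a log2 fold change against control of -0.41 (SE 0.22, unadjusted p of 0.10), made of -0.72 among replicate 1 arrays and -0.09 among replicate 2 arrays. Non-overlap of 2 arrays against 2 in one direction or the other was common, holding for 33.4% of all tested genes in this comparison and for 5 of the 10 axis genes. Irs2, an adaptor of both receptors, had a log2 fold change of -0.39 (SE 0.28) in the macroH2A2 shRNA line, with -0.01 among replicate 1 arrays and -0.77 among replicate 2 arrays, so that 1 array, at 18.3, carried it. Igf2bp1, which binds Igf2 transcripts, had -0.20 (SE 0.26) in the macroH2A1 shRNA line and 0.10 (SE 0.26) in the macroH2A2 shRNA line. The binding proteins Igfbp5 and Igfbp6 were above background on 2 arrays and 1 array, and no fold is read for them.

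Mest encodes an alpha/beta hydrolase-fold protein of the endoplasmic reticulum that is expressed from the paternal copy and is high in growing mesoderm and adipose tissue. Its single probe set read 113.2 and 196.2 in control, 107.8 and 136.2 with the macroH2A1 hairpin and 108.7 and 89.7 with the macroH2A2 hairpin. The macroH2A2 shRNA arrays were below both controls, but by a narrow margin against control replicate 1. The log2 fold change was -0.53 (SE 0.26, unadjusted limma p of 0.082, adjusted p of 1.0), with -0.05 among replicate 1 arrays and -1.01 among replicate 2 arrays. Leaving out control replicate 2 reduced it to -0.17. In the macroH2A1 shRNA line it was -0.27 (SE 0.26), the arrays overlapped the controls, and the sign turned to 0.09 without control replicate 2.

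Plagl1, also called Zac1, encodes a zinc finger transcription factor that can halt the cell cycle and is expressed from the paternal copy. Its 3 probe sets did not order the lines alike. Probe set 1426208_x_at, whose suffix marks probes that may also bind other transcripts, read 5361.0 and 5309.4 in control, 5636.4 and 6277.8 with the macroH2A1 hairpin and 5372.6 and 5973.3 with the macroH2A2 hairpin. All 4 knockdown arrays exceeded both controls, in the closest case 5372.6 against 5361.0, with log2 fold changes of 0.16 and 0.09 (SE 0.11 each). The sign for the macroH2A1 shRNA line turned to -0.02 after quantile normalization.

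The other Plagl1 probe sets went opposite ways. Probe set 1450533_a_at read 116.7 and 60.6 in control, 86.0 and 166.7 with the macroH2A1 hairpin and 129.6 and 127.5 with the macroH2A2 hairpin, with log2 fold changes of 0.44 (SE 0.34) and 0.52 (SE 0.34). Probe set 1438588_at read 111.7 and 47.9, then 89.5 and 32.0, then 68.6 and 30.6, with log2 fold changes of -0.34 (SE 0.48) and -0.52 (SE 0.48). In the last of these, replicate 1 exceeded replicate 2 in all 3 lines, by 0.86 to 1.14 on the log2 scale, more than any difference between lines. No Plagl1 probe set had an unadjusted p under 0.05 in any comparison without the block, and no direction is given for the gene.

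**Figure D3:**
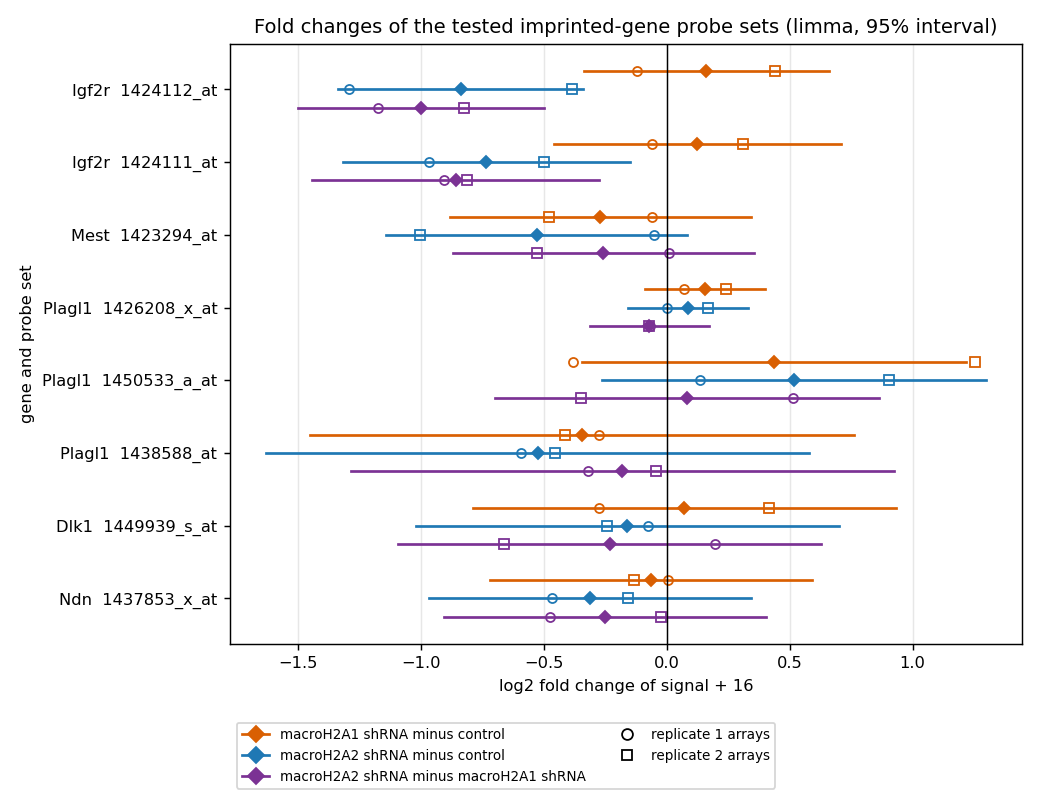
Log2 fold change of signal + 16 (x axis) for the 8 tested probe sets of the imprinted genes in 3 comparisons, with diamonds for the limma estimate, bars for its 95% interval, and circles and squares for the values among replicate 1 and replicate 2 arrays. The intervals of both Igf2r probe sets exclude 0 in the 2 comparisons that involve the macroH2A2 shRNA line, and all other intervals include 0.

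The measured members not called expressed gave no signal above the threshold on all arrays in any line. Signal below the threshold does not show that a gene is silent. Cdkn1c, which encodes the cell cycle inhibitor p57Kip2, lay between 4.9 and 14.2. Dlk1, a transmembrane protein of precursor cells related to Notch ligands, lay between 1.9 and 18.7, and Peg3, a zinc finger protein expressed from the paternal copy, between 0.1 and 19.9. Ndn, which encodes necdin, a growth-restraining protein of neurons, lay between 0.1 and 16.2 over its 8 probe sets. Peg3 reached 19.9 on a single array, by 1417355_at on macroH2A2 shRNA replicate 2, where the other 5 arrays read 2.7 to 9.1. Cdkn1c was highest on both macroH2A2 shRNA arrays, at 14.2 and 12.4, which were below the background threshold of those arrays. At these signals a difference between the lines was not detectable.

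A probe set was tested when its mean signal over the 6 arrays was at least 10.4, the 40th percentile, which 8 of the 27 probe sets met, for 5 of the 9 genes. Besides the expressed genes these were Dlk1 by 1449939_s_at and Ndn by 1437853_x_at, each above background on 1 array. Their fold changes compare signals near background and are not read as changes in level. Each gene was then counted once, by its brightest probe set. In the macroH2A1 shRNA line 2 of the 5 were lower and 3 higher, with a median log2 fold change of 0.07 beside -0.01 over all 12088 genes tested. In the macroH2A2 shRNA line 4 were lower and 1 higher, with a median of -0.31 beside -0.01, and between the knockdown lines all 5 were lower in the macroH2A2 shRNA line, with a median of -0.25 beside -0.0004. These medians rest on few genes: the -0.31 is the value of Ndn, and within the replicate sets the medians were -0.08 and -0.24 in the macroH2A2 shRNA line and -0.07 and -0.53 between the knockdown lines. Over the 3 expressed genes the medians were 0.16, -0.53 and -0.26, the first being the value of Plagl1 and the others those of Mest. Among replicate 1 and replicate 2 arrays they were -0.06 and 0.24, -0.05 and -0.38, and -0.07 and -0.53. Both comparisons with control share the control arrays.

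None of the 5 genes passed the test in the macroH2A1 shRNA line, the macroH2A2 shRNA line, the mean of both or the difference between them, with the block or without it. Over all 12088 genes tested, each likewise counted by its brightest probe set, the background was 0% in each without the block, and 0.273%, 0.199%, 0.397% and 0.00827% with it. At an unadjusted limma p under 0.05 there were 0 of 5 in the macroH2A1 shRNA line, beside 5.52% of all genes, 1 of 5, Igf2r, in the macroH2A2 shRNA line, beside 5.16%, and 1 of 5, again Igf2r, between the knockdown lines, beside 3.23%. The arrays of the line and of control did not overlap for 1 of 5 in the macroH2A1 shRNA line, beside 32.0% of all genes, and for 3 of 5 in the macroH2A2 shRNA line, beside 33.4%. Between the knockdown lines 1 of 5, Igf2r, did not overlap, beside 31.2%. With 5 genes, these shares do not set the members apart from the background. Not passing the test is no evidence of an unchanged level. Without the block, Macroh2a1 itself did not pass in the macroH2A1 shRNA line, with a log2 fold change of -1.67 (limma adjusted p of 0.123). With the block it passed (limma adjusted p of 0.0012).

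The clusters around the members were then read from a list of 54 other imprinted genes, of which 47 were measured and 19 expressed. Of those expressed mainly from the paternal copy 6 of 19 had signal above background, of those expressed from the maternal copy 11 of 25, and of those with transcripts from both 2 of 3. Airn, the noncoding RNA that starts inside Igf2r, runs antisense to its promoter and silences Igf2r on the paternal copy, read 68.0 and 41.1 in control, 74.0 and 43.8 with the macroH2A1 hairpin and 60.7 and 51.1 with the macroH2A2 hairpin by its brightest probe set, 1451634_at. The 3 lines overlapped, with log2 fold changes against control of 0.08 and 0.05 (SE 0.29 each). A dimmer Airn probe set, 1436627_at, read 49.6 and 21.0, 49.3 and 23.3, and 21.6 and 18.3, with -0.46 (SE 0.35) in the macroH2A2 shRNA line, and was above background on 5 arrays. The others tested, 1456139_at and 1446095_at, were above background on 3 arrays each and had 0.09 (SE 0.46) and -0.06 (SE 0.50) in that line, so the Airn probe sets did not order the lines alike. All 4 probe sets were higher on replicate 1 than on replicate 2 in every line, as was the median signal over all probe sets. Airn overlaps Igf2r on the opposite strand, and the annotation used here does not give the strand that each probe set reads.

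Copg2, a coat protein gene that lies beside Mest and is expressed from the maternal copy in some tissues, read 860.1 and 727.8 in control, 766.3 and 652.5 with the macroH2A1 hairpin and 776.3 and 684.5 with the macroH2A2 hairpin. The lines overlapped, with log2 fold changes of -0.16 (SE 0.15) and -0.12 (SE 0.15). In the Kcnq1 cluster, which holds Cdkn1c, 5 of 10 genes were expressed. Its noncoding RNA Kcnq1ot1, which silences the cluster on the paternal copy, read 78.1 and 47.1, 103.4 and 25.4, and 89.2 and 45.8 in the 3 lines by 1457781_at, again with replicate 1 above replicate 2 in each. Slc22a18, Tspan32, Cd81 and Tssc4 were also expressed there. In the macroH2A1 and macroH2A2 shRNA lines, Slc22a18 had log2 fold changes of -0.33 and -0.23 (SE 0.29 each). Tspan32 had -0.03 and -0.25 (SE 0.33 each). Cd81 had 0.10 and -0.13 (SE 0.14 each), and Tssc4 0.04 and 0.21 (SE 0.15 each). Ube3a, a ubiquitin ligase imprinted in neurons, was the one expressed gene of 7 measured in the cluster of Ndn, with log2 fold changes of -0.08 and 0.03. No measured gene of the Dlk1, Peg3, Grb10 or Igf2 clusters was expressed.

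Phlda2, another gene of the Kcnq1 cluster, encodes a small pleckstrin-homology protein that restrains placental growth. Its probe set read 32.4 and 37.5 in control, 13.3 and 5.5 with the macroH2A1 hairpin and 22.5 and 33.1 with the macroH2A2 hairpin. The macroH2A1 shRNA arrays were the lowest and were the 2 arrays on which it was not above background. With the background threshold in place of the dimmer signals, the control mean was 1.62-fold the macroH2A1 shRNA mean on the log2(signal + 16) scale. The macroH2A2 shRNA mean was 1.39-fold. These values describe the measured arrays without their spread and are not lower limits on a difference between the lines. The fitted log2 fold change against control, -1.02 (SE 0.27), is no measure of size here and became -1.90 with a pseudocount of 1. The limma p was 0.0052 unadjusted and 0.875 adjusted, or 0.146 adjusted with the block. Between the knockdown lines it was 0.018 unadjusted and 1.0 adjusted.

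Of the 26 other imprinted genes tested, 13 were lower and 13 higher in the macroH2A1 shRNA line, and 12 were lower and 14 higher in the macroH2A2 shRNA line. Their medians were 0.0005 and 0.02, beside -0.01 over all genes tested, and 0 passed the test in either, with the block or without it. After Phlda2, the smallest p in the macroH2A1 shRNA line belonged to Gnas, the stimulatory G protein alpha subunit, with 0.24 (SE 0.11), Blcap with 0.36 (SE 0.19) and Meg3, the maternal noncoding RNA of the Dlk1 cluster, which was not above background on either macroH2A1 shRNA array and for which no fold is read. In the macroH2A2 shRNA line they belonged to Impact, a translation regulator, with 0.26 (SE 0.16), Tssc4 with 0.21 (SE 0.15), Gnas with 0.15 (SE 0.11) and Osbpl5, above background on 5 arrays, with 0.36 (SE 0.28). Between the knockdown lines, after Phlda2, they belonged to Klf14, not above background on either macroH2A2 shRNA array, Cd81 with -0.23 (SE 0.14) and Impact with 0.22 (SE 0.16). The values are log2 fold changes, and none of these genes passed the test.

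**Figure D4:**
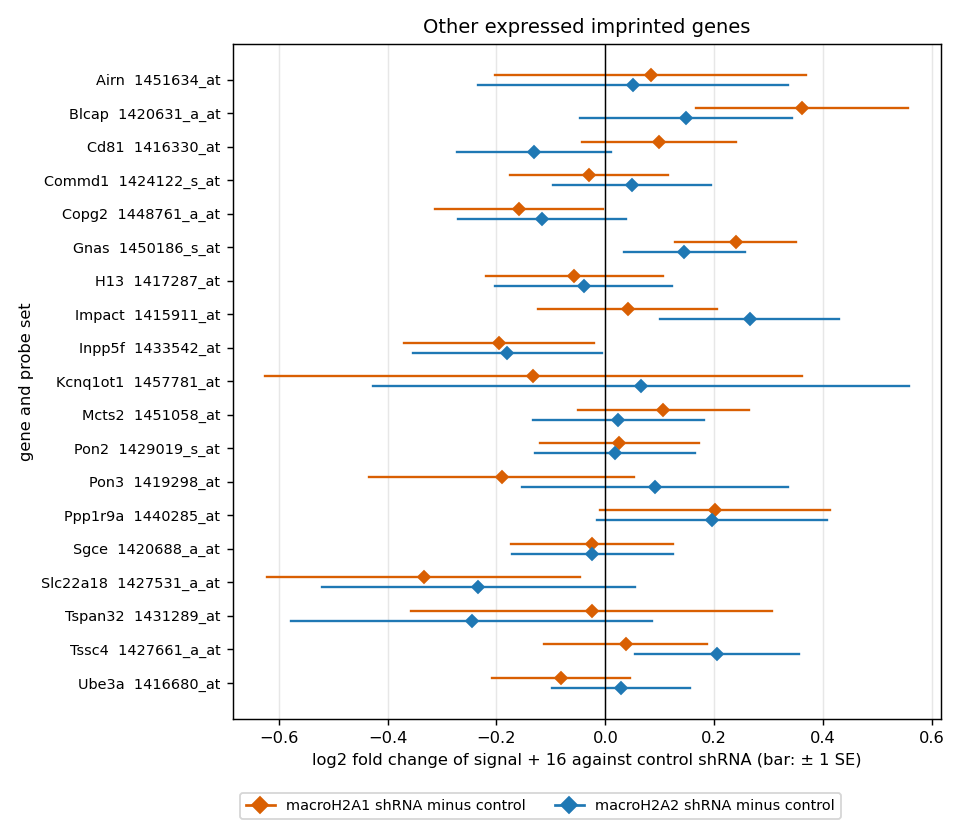
Log2 fold change of signal + 16 against control (x axis) for the 19 other imprinted genes that were expressed, with diamonds for the limma estimate, bars of 1 SE and a colour for each knockdown line. All values lie between -0.33 and 0.36, on both sides of 0 in both lines.

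Imprints are read and maintained by a set of DNA methyltransferases, zinc finger proteins and Polycomb subunits, of which all 14 listed were measured and 12 were expressed. Zfp57, the zinc finger protein that protects imprints in embryos, and Dnmt3l, the cofactor that helps set them in germ cells, were not above background. Dnmt3a, a de novo DNA methyltransferase, had log2 fold changes of 0.34 (SE 0.14, unadjusted p of 0.048) in the macroH2A1 shRNA line and 0.28 (SE 0.14) in the macroH2A2 shRNA line. Its dimmer probe sets did not all follow. Probe set 1460324_at was above both controls on every knockdown array, and 1423065_at only on the macroH2A1 shRNA arrays. Both 1423066_at and 1423064_at overlapped the controls in both lines. Trim28, the corepressor that Zfp57 recruits, had 0.33 (SE 0.17) and 0.30 (SE 0.17). Uhrf1, which brings the maintenance methyltransferase to replicating DNA, had 0.34 (SE 0.28) and 0.44 (SE 0.28), the latter made of 1.08 among replicate 1 arrays and -0.19 among replicate 2 arrays. Suz12, a Polycomb subunit, went the other way, with -0.10 (SE 0.12) and -0.21 (SE 0.12), and its macroH2A2 shRNA arrays were both below the controls. Non-overlap in either direction held for 33.4% of all tested genes in that comparison. The dimmer Suz12 probe sets 1427253_s_at and 1452364_at placed these arrays in the same way, and 1449661_at, 1420022_s_at and 1420020_at overlapped the controls. Dnmt1, the maintenance methyltransferase, had 0.10 (SE 0.13) and 0.02 (SE 0.13). Dnmt3b, the other de novo methyltransferase, had 0.39 (SE 0.25) in the macroH2A2 shRNA line and the smallest p between the knockdown lines, with 0.45 (SE 0.25, unadjusted p of 0.11). The Polycomb subunit Eed followed there with 0.22 (SE 0.14). A dimmer Dnmt3b probe set, 1418351_a_at, was also above background on all arrays, and its lines overlapped. It read 42.4 and 34.2 in control, 39.8 and 30.5 with the macroH2A1 hairpin and 40.5 and 33.2 with the macroH2A2 hairpin.

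Over the 12 imprint-maintenance genes, 5 were lower and 7 higher in the macroH2A1 shRNA line, with a median of 0.02. In the macroH2A2 shRNA line 3 were lower and 9 higher, with a median of 0.10. Over all genes tested the median was -0.01 in each. Among replicate 1 and replicate 2 arrays the medians were 0.03 and 0.07 in the macroH2A1 shRNA line. In the macroH2A2 shRNA line they were 0.23 and -0.01, so its lean came from the replicate 1 arrays. None of the 12 genes passed the test in either line, with the block or without it. Ezh2, the Polycomb methyltransferase, had -0.03 and -0.001 (SE 0.19 each), and Ctcf, the insulator protein of the Igf2 and H19 region, had 0.05 and 0.14 (SE 0.13 each).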

How the data were processed

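RNA of 6 one-colour arrays was analysed, 2 for each of 3 shRNA lines, grouped by the sample labels. The deposited values are probe set signal intensities on a linear scale, made by the authors with MAS5 per the submitters' processing notes; no MAS5 version is listed there. The 2% trimmed mean is 150.0 on each array, so any change in total signal was removed before deposit. The number of arrays limits the precision.

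Intensities were transformed as log2(signal + 16), which understates the change of dim probe sets. The 64 control probe sets were left out, and probe sets with a mean signal at or above the 40th percentile (10.4) were tested, 27025 in all. One fit (limma 3.58.1 in R 4.3.3, eBayes with trend) over all arrays had 3 group means, 3 residual and 4.90 prior degrees of freedom. Tests were two-sided with Benjamini-Hochberg adjustment over all tested probe sets and a threshold of 0.05. The fit was also run on simulated data with independent errors on each array. Those data held no replicate sets like the ones seen here, so that run does not bear on them.

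Both replicate numbers occur in every line's labels. Replicate 1 minus replicate 2 differences correlated between lines by 0.576, 0.372 and 0.415, so the replicate number was treated as a batch seen in the data, and a fit with it as a block (2 residual and 9.09 prior degrees of freedom) is given where it bears on a result.

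A gene with several probe sets is represented by the brightest. The text names all members, the hairpins' targets, the expressed genes beside members, and up to 4 genes per comparison with the smallest p from each list. Igf1r, Dnmt1, Ezh2, Ube3a, Zfp57, Dnmt3l and the dimmer Airn probe sets were added for their roles. Dimmer Dnmt3a, Dnmt3b and Suz12 probe sets are given beside the brightest. The members and lists were chosen with earlier results of these data known. Of 45 background genes, 41 were measured. Alternatives were another pseudocount, other filters, quantile normalization, median centring, each array left out and the block.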

Additional observations from a re-analysis of the deposited data

How the results depend on the processing

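Of 529 values recomputed under alternatives to the reported setting, 485 kept their direction and their side of the threshold. Many fold changes among these could not move. The block, the filters and leaving out an array of a line outside the comparison keep the estimate. The share is therefore no measure of robustness. With the replicate block, the number of probe sets passing the test over the whole array rose from 0 to 52 in the macroH2A1 shRNA line, 39 in the macroH2A2 shRNA line, 84 for the mean of both and 1 between the knockdown lines; with each array centred on its median it was 3 in the macroH2A1 shRNA line and 9 for the mean of both. The block alone changed no call of an imprinted gene. Combinations of the block with other settings were chosen after seeing the data; they leave 1 residual degree of freedom when an array is left out, and the lone array of a line is then assumed to vary like the others. With the block, Igf2r passed in the macroH2A2 shRNA line without control replicate 2 (1 probe set, adjusted p of 0.0227), without macroH2A1 replicate 1 (1, 0.0465), without macroH2A1 replicate 2 (1, 0.0473) and without macroH2A2 replicate 2 (2 probe sets, 0.00105 and 0.00844); over the 12 settings with the block, adjusted p ran from 0.00105 to 0.825 for 1424112_at and from 0.00844 to 0.787 for 1424111_at. Without macroH2A2 replicate 2 the block also gave 1 probe set for the mean of both and 2 between the knockdown lines. Expressed members numbered 5 in place of 3 when the 40th percentile of mean signal replaced the background threshold. The macroH2A1 shRNA value of Igf2r turned to -0.085 and -0.21 with the block and without control replicate 2. Plagl1 1426208_x_at turned to -0.023 in the macroH2A1 shRNA line and to 0.023 between the knockdown lines after quantile normalization. The signs of these values also turned when single arrays were left out, with log2 fold changes in the macroH2A1 shRNA line of -0.63 to 0.087 for Mest, -0.24 to 0.49 and -0.16 to 0.49 for Igf2r, -0.91 to 0.22 for Plagl1 1438588_at and -0.21 to 0.38 for Airn; in the macroH2A2 shRNA line of -0.23 to 0.0023 for Copg2 and -0.23 to 0.33 for Airn; and between the knockdown lines of -0.15 to 0.0073 (1426208_x_at), -0.75 to 0.39 (1438588_at) and -0.34 to 0.50 (1450533_a_at) for Plagl1, -0.071 to 0.16 for Copg2 and -0.33 to 0.26 for Airn. The cause of these changes was not tested. Signal near background limits what can be said of Igf2, Grb10, Cdkn1c, Dlk1, Peg3 and Ndn.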
